A study of Mus musculus with 9 samples.

Results

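Fetal mouse ovaries recovered 4 and 7 days after transplantation under the kidney capsule were compared with ungrafted ovaries of the stage from which the grafts had started. The comparison used 4 of the 9 arrays of the series, namely the 2 arrays of early grafts (1 from day 4 and 1 from day 7 post-transplantation) and the 2 day 0 arrays. It was made over all 45101 probe sets of a whole-genome mouse array, where a probe set is a group of short probes designed to measure a transcript. Some probe sets match several genes. A change was kept only where both graft arrays lay beyond both day 0 arrays on the same side.

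Ungrafted XX ovaries of 13 dpc (days post coitum) served as day 0, and the grafts had started from such ovaries. Since no ungrafted ovary of a later age was among the arrays, grafting and the 4 or 7 days of further age cannot be told apart. All of the embryos, controls included, had been exposed in utero to busulfan, which depletes germ cells and was injected into the mothers on the days before collection. The hosts were 8-week-old XY nude mice (BALB/c, nu/nu), which lack a functional thymus and hence most T cells but keep macrophages, NK cells and B cells. The labels name ICR as the strain, whereas the methods of the study name C57BL/6 and ICR. Each graft array held RNA of approximately 10 pooled grafts, and no source used here names the embryos, litters and hosts of a pool. The p-values therefore reflect the spread among such pools and not among animals. RNA was labelled with 1 of 2 kits, and since no array's kit is known, a kit effect and an effect of grafting cannot be told apart.

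At 13 dpc the ovary holds somatic cells that have just taken the female path, the pre-granulosa cells, together with stromal precursors, vessels, germ cells and blood in transit. Pre-granulosa cells depend on WNT4 and RSPO1 signalling and on the transcription factor FOXL2, and their male counterparts, the Sertoli cells of the testis, on SOX9. A graft without blood flow of its own is at first invaded by host vessels and leukocytes, and macrophages that enter damaged tissue clear debris and promote the deposition of matrix. In RNA of whole grafts, a larger number of cells of a type and more RNA per cell cannot be told apart.

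The values are log2 intensities, on which a difference of 1 is a doubling. With limma, a model with 1 mean per day was fitted to all 9 arrays, and the average of days 4 and 7 was set against day 0. Calls required a Benjamini-Hochberg adjusted p under 0.05, more than a 2-fold difference and the condition on single arrays above. Residual spread was estimated from the duplicates of days 0, 10 and 20, which stood in for the unreplicated arrays of days 4 and 7. The standard deviation of the difference over all probe sets was 0.34 between days 7 and 4, against 0.45, 0.34 and 0.70 between the duplicates of days 0, 10 and 20. Values below the 25th percentile of all values, 4.82, lie near background, so that fold changes which start or end there are imprecise.

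The day 0 arrays carried the defining genes of the fetal gonad. Wt1, a transcription factor of the gonadal somatic lineage, was at 12.42 and 12.25 on the day 0 arrays, 11.86 on day 4 and 11.81 on day 7, and Gata4, which acts beside it, was at 10.61 and 10.11 on the day 0 arrays, 10.18 on day 4 and 10.48 on day 7. The germ cell helicase gene Ddx4 was at 7.37 and 9.61 on the day 0 arrays, 4.76 on day 4 and 5.84 on day 7, so that germ cell transcripts were present in both day 0 pools, more so in replicate 2. Genes of skeletal and cardiac muscle stood higher in day 0 replicate 1, with a list median of 7.62 and 5.78 on the day 0 arrays, 5.25 on day 4 and 5.04 on day 7. Neutrophil genes also stood apart there, and S100a9, which encodes a calcium-binding protein of neutrophils, was at 9.70 and 6.25 on the day 0 arrays, 5.95 on day 4 and 5.69 on day 7. Genes of kidney tubules, the tissue around the grafts, had a list median of 5.77 and 5.87 on the day 0 arrays, 5.62 on day 4 and 5.68 on day 7, and none of the 18 was called. On the day 20 arrays this median was 11.22 and 6.08. Since these duplicates enter the residual spread, the lack of calls says little for these genes.

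In total, 964 probe sets, or 2.14% of all, were higher in the early grafts than in the ungrafted ovaries, and 295, or 0.654%, were lower. At 1 probe set per gene, 577 of 18194 genes were called higher (3.17%) and 166 were called lower (0.912%). Both graft arrays lay above both day 0 arrays for 19.7% of the probe sets and 22% of the genes and below them for 34.2% and 39.3%, whatever the size of the difference. The median difference over all genes was -0.09. Among the called genes, 50 rose by more than 16-fold and 5 fell by more than 16-fold. Of the called probe sets, 80 higher and 18 lower ones were called whichever single array of days 0, 10 or 20 was left out. The counts of higher probe sets were 105 and 156 when day 0 replicate 1 or 2 was left out and 275 when a day 10 array was. Leaving out either array of day 10 or of day 20 removes that pair from the residual spread and leaves every difference unchanged. Both omissions of such a pair give the same calls. Here and below they show only how the calls depend on the estimated spread. With low values raised to the 25th percentile, 253 were higher and 82 lower.

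**Figure D1:**
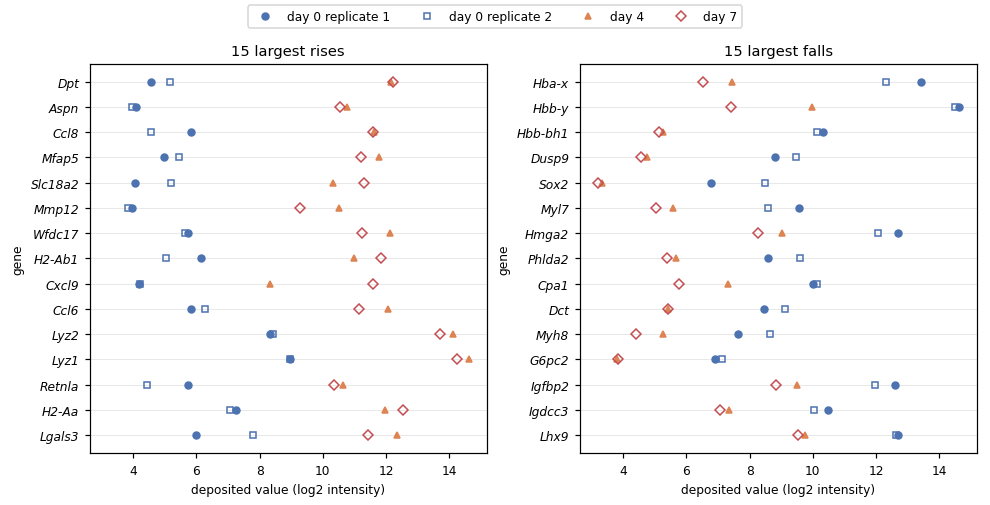
Deposited log2 intensities of the 15 genes with the largest rise (left) and the 15 with the largest fall (right) among the genes called between early grafts and ungrafted ovaries. Each point is 1 array, with filled circles and open squares for the 2 day 0 arrays, triangles for day 4 and open diamonds for day 7. In every row both graft arrays lie to the same side of both day 0 arrays, as the selection requires.

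The plot of the genes with the largest changes shows matrix and leukocyte genes on the rising side. On the falling side it shows globins of the embryo and regulators of the fetus. The members were chosen by this difference, so that their order is a description.

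At 1 probe set per gene, the matrix genes Dpt and Aspn had the largest rises. Apart from the matrix gene Mfap5 and the transporter gene Slc18a2, the remaining genes of the 15 largest rises were chemokine genes and genes of leukocytes and their antigen presentation, and a probe set of H2-Ea that was not the one used for its gene differed by 7.87. Dpt, which encodes dermatopontin, a protein that binds collagen and the proteoglycan decorin, was at 4.58 and 5.16 on the day 0 arrays, 12.16 on day 4 and 12.21 on day 7 (log2 difference 7.32, standard error 0.41, adjusted p = 0.00403). Aspn, which encodes the collagen-binding proteoglycan asporin, was at 4.08 and 3.97 on the day 0 arrays, 10.77 on day 4 and 10.55 on day 7 (log2 difference 6.63, standard error 0.35, adjusted p = 0.00361). Both genes were close to background in the ungrafted ovary, and their 2 graft arrays lay within 0.3 of each other. Mfap5, a component of elastic microfibrils, was at 4.98 and 5.45 on the day 0 arrays, 11.78 on day 4 and 11.19 on day 7 (log2 difference 6.27, standard error 0.25, adjusted p = 0.00216). These 3 genes were called in each omission of a single array.

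In the list of small leucine-rich proteoglycans, which coat collagen fibrils and set their diameter, 8 of 11 genes were higher, with a median of 2.01 against -0.09 for all genes. Of all genes, 3.17% were called higher and 0.912% lower. Ogn, which encodes osteoglycin, went from 6.89 and 7.28 to 11.57 and 11.98, Lum, which encodes lumican, from 9.68 and 9.93 to 13.26 and 13.72, and Dcn, which encodes decorin, from 10.67 and 10.65 to 13.88 and 14.30 (day 0 arrays first, then days 4 and 7). Fmod (fibromodulin) and Podn (podocan), which were not called, had differences of -0.33 and 0.11. The list of matrix and wound repair genes had 14 of 24 higher, none lower and a median of 1.93. Thbs1, whose product thrombospondin 1 is released by platelets and activates TGF-beta, rose by 4.16 (adjusted p = 0.0152), Postn, which encodes periostin, by 3.34 (adjusted p = 0.0344), and the fibrillar collagen genes Col1a1, Col1a2 and Col3a1 by 2.72, 1.83 and 1.39. Lox and Loxl1, which encode enzymes that cross-link collagen and elastin, rose by 2.65 and 2.17. Tgfbi, another TGF-beta-induced matrix gene, differed by -0.12 and was not called. Called members numbered 1 without day 0 replicate 1, 5 without replicate 2 and 6 without either day 10 array in the matrix list, against 5, 5 and 6 in the proteoglycan list.

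Contractile genes were higher as well, with 6 of 16 members of the smooth muscle and pericyte list called, against 3.17% of all genes. The list median was 1.17. The smooth muscle actin gene Acta2 went from 10.67 and 10.31 to 12.13 and 12.47, and Tagln, which encodes the actin-binding protein transgelin, from 8.52 and 8.57 to 10.48 and 11.20. Abcc9, a potassium channel subunit of pericytes, showed the largest change of the list, at 3.36 (adjusted p = 0.0143). Myh11, the heavy chain of mature smooth muscle myosin, was at 9.40 and 8.93 on the day 0 arrays, 8.68 on day 4 and 8.87 on day 7, without a call. For Acta2, 1 of 3 probe sets was called, and the others ranged down to -0.06. None of the 6 calls held in the fits without a day 0 array, and the fits without a day 10 array gave 2.

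**Figure D2:**
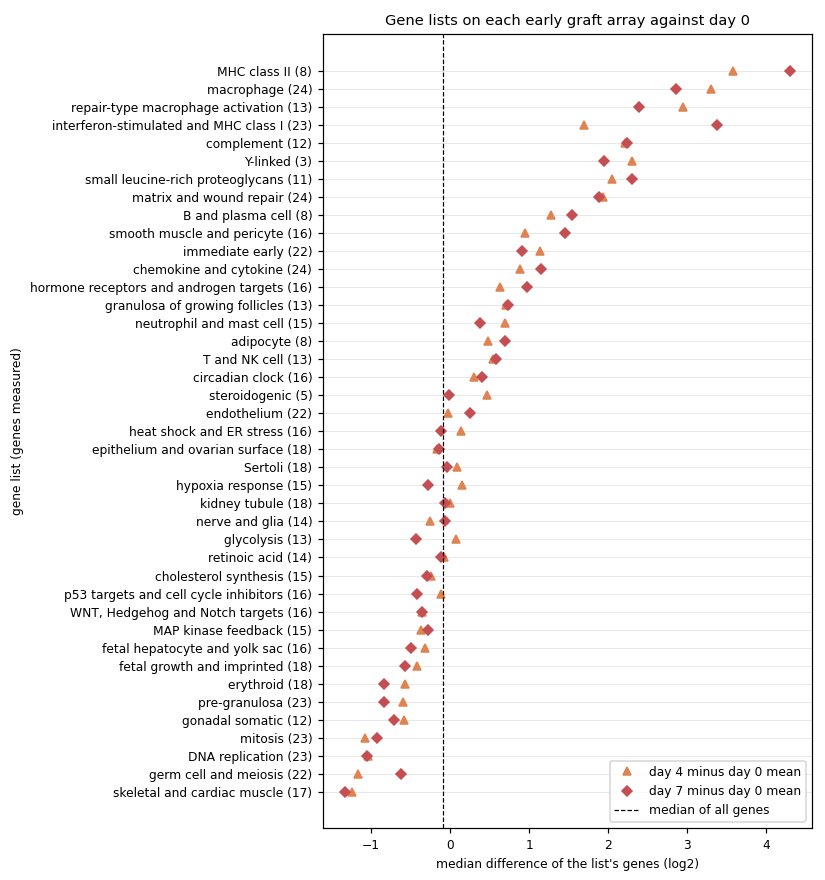
Median log2 difference from the day 0 mean of the genes in each of 41 lists, for the day 4 array (triangles) and the day 7 array (diamonds), with the number of genes measured in brackets. Both arrays are set against the same day 0 arrays, and the dashed line is the median of all genes. Immune and matrix lists lie to the right, and muscle, germ cell and proliferation lists lie to the left.

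Macrophage genes rose together. In the macrophage list 19 of 24 genes were higher, against 3.17% of all genes, and none was lower, with a median of 3.07. Both graft arrays lay above both day 0 arrays for 23 of the 24, against 22% of all genes. Lyz2, which encodes the lysozyme of macrophages and granulocytes, was at 8.35 and 8.44 on the day 0 arrays, 14.12 on day 4 and 13.72 on day 7 (log2 difference 5.53, standard error 0.21, adjusted p = 0.00216). Ctss, which encodes the lysosomal protease cathepsin S, was at 7.49 and 8.44 on the day 0 arrays, 13.06 on day 4 and 12.52 on day 7 (log2 difference 4.83, standard error 0.39, adjusted p = 0.00697). For both genes, all graft values lay at least 4 units above all day 0 values. The pan-leukocyte gene Ptprc (CD45) rose by 4.41, Cd68 by 3.01, Csf1r, the receptor for the growth factor that maintains macrophages, by 2.69, and the F4/80 gene Adgre1 by 2.53. Ccr2, the chemokine receptor that brings monocytes out of the blood, was at 4.69 and 4.79 on the day 0 arrays, 9.36 on day 4 and 8.98 on day 7, and went from near background to a clear level. For Ptprc 1 of 2 and for Ccr2 2 of 4 probe sets were called, with the lowest at 0.66 and 0.56. Cx3cr1, which marks patrolling monocytes and some resident macrophages, was not called and differed by 0.45. Lyz1 and Lyz2 are near-identical copies whose probes may not tell them apart. The numbers of called macrophage genes were 5 and 8 when day 0 replicate 1 or 2 was omitted, 8 when a day 10 array was and 3 with low values raised.

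Among 13 genes of repair-type macrophage activation, 10 were higher, against 3.17% of all genes, with a median of 2.84. Retnla, which encodes a secreted protein induced by interleukin 4 and 13, was at 5.73 and 4.45 on the day 0 arrays, 10.64 on day 4 and 10.36 on day 7 (log2 difference 5.41, standard error 0.74, adjusted p = 0.0253). Lgals3, which encodes galectin 3, was at 5.99 and 7.79 on the day 0 arrays, 12.34 on day 4 and 11.42 on day 7 (log2 difference 4.99, standard error 0.58, adjusted p = 0.016). Arg1, the arginase of repair macrophages, rose by 2.84, the haemoglobin scavenger receptor gene Cd163 by 3.28, Folr2 by 3.34 and Gpnmb by 3.002. Chil3 and Mgl2, other genes of the same activation state, were not called and differed by 0.67 and 0.40. For Gpnmb and Trem2, 1 of 2 probe sets was called, and the other differed by -0.10 and -0.06. Mmp12, which encodes macrophage elastase, was at 3.95 and 3.83 on the day 0 arrays, 10.52 on day 4 and 9.27 on day 7 (log2 difference 6.004, standard error 0.85, adjusted p = 0.0271). Wfdc17, a gene of activated macrophages, was at 5.72 and 5.64 on the day 0 arrays, 12.13 on day 4 and 11.23 on day 7, with all graft values more than 5 units above day 0. Only 1 member of this list was called without either day 0 array, whereas 6 were called without either day 10 array.

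Chemokines, the secreted peptides that draw leukocytes into tissue, had 7 of 24 genes higher together with the cytokines of the list. Of all genes, 3.17% were called higher. Both graft arrays lay above both day 0 arrays for 23 of 24, against 22% of all genes. The monocyte attractant gene Ccl8 was at 5.82 and 4.55 on the day 0 arrays, 11.63 on day 4 and 11.58 on day 7 (log2 difference 6.42, standard error 0.77, adjusted p = 0.0172). Ccl6 rose by 5.55 and Ccl9 by 3.97. The cytokine genes Csf1, whose product supports macrophages, and Il33, whose product alerts tissue immune cells, rose by 1.86 and 2.60. For Csf1, 1 of 4 probe sets was called, and the lowest differed by 0.02. The classical acute inflammatory genes were not called, with differences of 0.43 for Il6, 0.34 for Tnf, 0.88 for Il1b and 0.10 for Cxcl1. None of these chemokine and cytokine calls held without a day 0 array, and 2 were made without either day 10 array.

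Complement genes had 8 of 12 higher, against 3.17% of all genes, and a median of 2.15. The C1q chains, made mainly by macrophages, rose by 3.56 (C1qa), 3.23 (C1qb) and 3.12 (C1qc). The proteases that act with them rose by 3.33 (C1s1) and 1.83 (C1ra), and Serping1, which encodes their inhibitor, by 2.01. Single calls were left without a day 0 array, and 2 without a day 10 array.

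Major histocompatibility complex (MHC) class II genes, which present antigen on macrophages, dendritic cells and B cells, had a median of 3.95, the highest of the 41 lists. Of the 8 members 5 were higher, against 3.17% of all genes. H2-Ab1 was at 6.15 and 5.06 on the day 0 arrays, 10.99 on day 4 and 11.85 on day 7 (log2 difference 5.82, standard error 0.70, adjusted p = 0.0175), H2-Aa at 7.26 and 7.07 on the day 0 arrays, 11.96 on day 4 and 12.55 on day 7 (log2 difference 5.09, standard error 0.55, adjusted p = 0.013), and the invariant chain gene Cd74 at 5.82 and 6.24 on the day 0 arrays, 10.05 on day 4 and 10.62 on day 7 (log2 difference 4.31, standard error 0.59, adjusted p = 0.0246). In each of these 3 genes the day 7 array stood above the day 4 array. Ciita, the master regulator of class II genes, was at 5.91 and 5.27 on the day 0 arrays, 5.60 on day 4 and 7.29 on day 7 and was not called. These H2 genes have near-identical relatives, and the probe sets of H2-Ea ranged from 0.03 to 7.87 in their difference, so that their sizes are uncertain. No class II call held without a day 0 or a day 10 array (0 in each case).

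Interferon-stimulated genes and MHC class I genes had 16 of 23 members higher, against 3.17% of all genes, and a median of 2.38. The promoters of some of these genes hold the letters of the interferon-stimulated response element, at which STAT and IRF factors bind. Windows around these letters in 5 promoters are printed here 5' to 3' on the strand of the gene, from RefSeq promoters on GRCm38.p6, with the letters GAAANNGAA or their reverse complement TTCNNTTTC in capitals. They are shown because these genes were called higher and had their highest value on day 7. Cxcl10 comes from the chemokine list.
Ifit1 (chr19:34640760-34640833, + strand): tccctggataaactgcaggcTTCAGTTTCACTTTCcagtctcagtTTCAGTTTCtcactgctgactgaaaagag
Ifit3 (chr19:34583354-34583455, + strand): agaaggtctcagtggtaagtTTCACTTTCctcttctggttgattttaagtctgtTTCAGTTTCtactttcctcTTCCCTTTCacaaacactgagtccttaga
Gbp2 (chr3:142620585-142620633, + strand): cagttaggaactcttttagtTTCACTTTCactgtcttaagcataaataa
Irgm1 (chr11:48871416-48871470, - strand): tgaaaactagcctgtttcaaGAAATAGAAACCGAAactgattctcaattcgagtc
Cxcl10 (chr5:92349074-92349122, - strand): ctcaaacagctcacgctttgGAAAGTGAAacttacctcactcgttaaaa

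Over 250 bases before and 50 after the start site, these letters were present in 10 of 19 list members with a promoter entry (52.6%), against 8.56% of all promoters of that length and 9.76% of all genes with a promoter entry, on either strand. Of the 14 called members with an entry, 6 held them (42.9%). A match describes the letters of a window and does not show that a factor binds there.

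Ifit1, which encodes a protein that blocks translation of viral RNA, was at 6.002 and 4.93 on the day 0 arrays, 8.66 on day 4 and 9.86 on day 7 (log2 difference 3.79, standard error 0.37, adjusted p = 0.00993). Ifit3, its partner, was at 5.87 and 6.18 on the day 0 arrays, 8.28 on day 4 and 10.09 on day 7 (log2 difference 3.16, standard error 0.30, adjusted p = 0.00964). The guanylate-binding protein gene Gbp2 was at 8.44 and 8.97 on the day 0 arrays, 11.19 on day 4 and 13.22 on day 7 (log2 difference 3.501, standard error 0.38, adjusted p = 0.0134), and Irgm1, an immunity-related GTPase, at 8.21 and 8.02 on the day 0 arrays, 9.45 on day 4 and 11.64 on day 7 (log2 difference 2.43, standard error 0.34, adjusted p = 0.0257). For these 4 genes the day 4 array lay above both day 0 arrays, and the day 7 array lay above day 4. The immunoproteasome subunit genes Psmb8 and Psmb9 rose by 4.59 and 3.24, the peptide transporter gene Tap1 by 2.54, and B2m, the light chain of class I molecules, by 1.80. For Tap1 1 of 4 and for Psmb8 1 of 2 probe sets was called, with the lowest at -0.12 and 0.94. The class I heavy chain genes H2-K1 and H2-D1 rose by 3.90 and 4.17. The 9 probe sets of H2-D1 ranged from -0.06 to 6.48, and class I genes are near-identical copies. Rsad2 and Mx2, also induced by interferon, were not called and differed by 0.42 and 0.67. The list had 2 and 3 calls when day 0 replicate 1 or 2 was omitted, 8 when a day 10 array was, 5 without the day 7 array, and 2 in a fit of only the 4 arrays with days 4 and 7 as replicates.

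Among mast cell and neutrophil genes, 5 of 15 were higher, against 3.17% of all genes, and all 5 are mast cell genes. Cma1, the mast cell chymase, was at 4.92 and 4.72 on the day 0 arrays, 9.66 on day 4 and 8.37 on day 7 (log2 difference 4.19, standard error 0.27, adjusted p = 0.00502). Cpa3, the mast cell carboxypeptidase, was at 4.99 and 5.62 on the day 0 arrays, 9.76 on day 4 and 8.37 on day 7 (log2 difference 3.76, standard error 0.35, adjusted p = 0.0094). Fcer1a, the alpha chain of the high-affinity IgE receptor, was at 3.42 and 3.47 on the day 0 arrays, 6.84 on day 4 and 4.49 on day 7, with a difference of 2.22. The proteases Mcpt4 and Tpsb2 rose by 1.29 and 1.49, and 1 of 2 probe sets of Tpsb2 was called. In all 5 genes the day 4 array was the higher of the grafts. The neutrophil genes S100a8, S100a9, Ngp, Camp and Ltf were not called, and their day 0 replicate 1 values lay above all other 3 arrays. Of the mast cell calls, 1 was made without either day 0 array and 3 without either day 10 array.

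B and plasma cell genes had 5 of 8 higher, against 3.17% of all genes, with a median of 1.56. Ighm, the heavy chain of IgM, was at 7.18 and 7.40 on the day 0 arrays, 10.48 on day 4 and 10.83 on day 7 (log2 difference 3.37, standard error 0.30, adjusted p = 0.00877). Jchain, which joins IgM and IgA into polymers, was at 3.18 and 3.68 on the day 0 arrays, 6.88 on day 4 and 8.25 on day 7 (log2 difference 4.14, standard error 0.34, adjusted p = 0.00725). Of the genes of B cells themselves, Blnk, an adaptor of the B cell receptor, rose by 1.83 (adjusted p = 0.0124), Ms4a1, which encodes CD20, by 1.82 (adjusted p = 0.0477) and Cd79b, a chain of the receptor, by 1.30 (adjusted p = 0.0446). The other receptor chain gene Cd79a and the B cell transcription factor gene Pax5 were not called and differed by 0.09 and 0.05. Of 11 probe sets of Ighm, 2 were called. Of 13 T and NK cell genes, Gzma, Il7r and Ncr1 were higher. The granule protease gene Gzma was at 5.39 and 5.03 on the day 0 arrays, 6.59 on day 4 and 9.89 on day 7, and the NK receptor gene Ncr1 at 4.65 and 4.90 on the day 0 arrays, 5.51 on day 4 and 6.83 on day 7, both with the day 7 array highest. The T cell receptor complex genes Cd3e, Cd3d and Cd3g had differences of 0.13, 0.34 and 0.48, and none was called. No B, T or NK cell call held without a day 0 array, and 2 and 1 were made without either day 10 array.

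The hosts carried a Y chromosome and the donor ovaries did not, so that Y-linked transcripts mark host cells, unless a probe also binds an X-linked relative. Kdm5d, a histone demethylase gene of the Y chromosome, was at 3.13 and 3.12 on the day 0 arrays, 5.43 on day 4 and 5.07 on day 7 (log2 difference 2.12, standard error 0.27, adjusted p = 0.0202). Eif2s3y, a translation initiation factor gene, was at 3.63 and 3.73 on the day 0 arrays, 7.70 on day 4 and 6.76 on day 7 with an adjusted p of 0.0636, and Uty at 3.98 and 4.65 on the day 0 arrays, 5.96 on day 4 and 5.03 on day 7 (adjusted p = 0.457). All 3 genes had both graft arrays above both day 0 arrays, as 22% of all genes did, and the day 4 array above the day 7 array. Only Kdm5d was called, at 1 of its 3 probe sets. Their part in the rise of the immune, matrix and contractile genes was not tested. Kdm5d was not called when a day 0 or a day 10 array was left out, and with low values raised its difference was 0.43.

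Genes of the granulosa cells of growing follicles had 4 of 13 higher, against 3.17% of all genes, and none lower. Their median was 0.72. Slc18a2, the vesicular monoamine transporter, which is on this list and is also known from mast cells and neurons, was at 4.05 and 5.19 on the day 0 arrays, 10.33 on day 4 and 11.31 on day 7 (log2 difference 6.20, standard error 0.41, adjusted p = 0.00511). Nr5a2, a nuclear receptor needed for ovulation, was at 5.09 and 6.21 on the day 0 arrays, 8.63 on day 4 and 9.89 on day 7 (log2 difference 3.61, standard error 0.44, adjusted p = 0.0175). Inha, which encodes the alpha subunit of the hormone inhibin, was at 10.17 and 9.82 on the day 0 arrays, 12.22 on day 4 and 12.69 on day 7 (log2 difference 2.46, standard error 0.28, adjusted p = 0.0155). In each of them the day 7 array stood above the day 4 array. Hsd17b1, which makes oestradiol from oestrone, rose by 1.70. The receptor genes Amhr2 and Fshr were not called, at -0.01 and -0.18. For Nr5a2, 2 of 4 probe sets were called, and the lowest differed by -0.18. Slc18a2 was called in each omission of a single array of days 0, 10 or 20, and the other 3 were not called without a day 0 or a day 10 array.

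Genes for 4 steroid hormone receptors rose in the early grafts, with 6 of 16 genes of the list of hormone receptors and androgen targets higher. Of all genes, 3.17% were called higher. Nr3c2, the mineralocorticoid receptor, was at 5.12 and 5.32 on the day 0 arrays, 7.65 on day 4 and 7.74 on day 7 (log2 difference 2.48, standard error 0.29, adjusted p = 0.0158). The progesterone receptor gene Pgr was at 5.80 and 6.38 on the day 0 arrays, 7.44 on day 4 and 8.48 on day 7 (log2 difference 1.87, standard error 0.28, adjusted p = 0.0319), and the oestrogen receptor gene Esr1 at 9.51 and 9.38 on the day 0 arrays, 10.70 on day 4 and 10.70 on day 7 (log2 difference 1.26, standard error 0.19, adjusted p = 0.0317). Nr3c1, the glucocorticoid receptor, rose by 1.36, Tgfbr2, a receptor for TGF-beta, by 1.94, and Tubb3, a tubulin gene that responds to androgen in Sertoli cells and is otherwise neuronal, by 2.64. Rhox5, a homeobox gene that androgen induces in Sertoli cells, was at 7.90 and 9.73 on the day 0 arrays, 5.97 on day 4 and 5.94 on day 7, and although all graft values were below all day 0 values its adjusted p was 0.0718. Ube2b and B4galnt1, which the study selected as androgen receptor targets, were not called and differed by -0.02 and 1.615. The latter started near background on day 0. For Esr1, Pgr and Tgfbr2, 1 of 3 probe sets each was called, and the others differed by as little as 0.17, 0.17 and 0.02. For Nr3c1, 3 of 6 were called, and the lowest differed by -0.10. None of the 6 genes higher in this list was called without a day 0 array, and 1 was called without either day 10 array.

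Of 5 steroidogenic genes, Hsd3b1, which makes progesterone from pregnenolone, was higher, at 7.496 and 9.01 on the day 0 arrays, 11.77 on day 4 and 12.11 on day 7 (log2 difference 3.69, standard error 0.53, adjusted p = 0.0292). Cyp11a1, which starts steroid synthesis from cholesterol, was lower, at 6.17 and 6.41 on the day 0 arrays, 5.56 on day 4 and 4.99 on day 7 (log2 difference -1.01, standard error 0.17, adjusted p = 0.0479), with 1 of 3 probe sets called. Cyp17a1, which is needed for androgens, differed by -0.002. The steroidogenic calls moved in opposite directions, and the Cyp11a1 call ended without any 1 of the day 0 or day 10 arrays. The Hsd3b1 call ended without day 0 replicate 1, either day 10 array, the day 4 array or the day 7 array, and with low values raised.

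The genes with the largest falls were the globins of the embryo, carried by the primitive red cells that the yolk sac makes. Hba-x, the zeta chain, was at 13.41 and 12.30 on the day 0 arrays, 7.46 on day 4 and 6.51 on day 7 (log2 difference -5.87, standard error 0.36, adjusted p = 0.0047). Hbb-y, the epsilon chain, was at 14.61 and 14.49 on the day 0 arrays, 9.97 on day 4 and 7.42 on day 7 (log2 difference -5.85, standard error 0.85, adjusted p = 0.0297), and Hbb-bh1, the embryonic beta-like chain, at 10.33 and 10.12 on the day 0 arrays, 5.26 on day 4 and 5.13 on day 7 (log2 difference -5.03, standard error 0.25, adjusted p = 0.00296). Hbb-y still stood higher on day 4 than on day 7, whereas Hbb-bh1 had similar low values on both. The globin genes are related in sequence, and cross-hybridization between them was not tested. Windows of 2 promoters are shown for these members, from RefSeq on GRCm38.p6, with the letters TGATAA of a GATA factor site (TTATCA in reverse) and TATAAA of a TATA box in capitals.
Hba-x (chr11:32276472-32276597, + strand): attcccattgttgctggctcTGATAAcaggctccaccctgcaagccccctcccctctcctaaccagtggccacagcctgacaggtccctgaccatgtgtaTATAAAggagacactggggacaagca
Hbb-y (chr7:103853344-103853389, - strand): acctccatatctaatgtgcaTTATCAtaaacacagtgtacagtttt

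TGATAA was present in 7 of 15 erythroid genes with a promoter entry (46.7%), against 9.05% of all promoters and 10.4% of all genes, and TATAAA in 5 of 15 (33.3%), against 13.6% and 15.7%. The other GATA form searched, AGATAA, was present in 5 of 15 (33.3%), against 11.2% and 12.7%, and in neither of the called globin genes with an entry. Of 18 erythroid genes, 3 were lower, against 0.912% of all genes, none was higher, and the median was -0.70. Slc4a1, the anion exchanger of red cells, was at 9.29 and 7.30 on the day 0 arrays, 5.52 on day 4 and 5.30 on day 7, and Alas2, which starts haem synthesis there, at 9.39 and 8.08 on the day 0 arrays, 6.26 on day 4 and 5.86 on day 7. Both had all graft values below all day 0 values and were not called (adjusted p = 0.109 and 0.052). The erythroid transcription factor gene Gata1 differed by -0.12. Hba-x and Hbb-bh1 were called in every omission of a single array of days 0, 10 or 20, and Hbb-y was not called without a day 0 or a day 20 array.

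Single genes of other fetal tissues fell too. Afp, the alpha-fetoprotein of fetal liver and yolk sac, was at 7.78 and 7.13 on the day 0 arrays, 4.75 on day 4 and 4.80 on day 7 (log2 difference -2.68, standard error 0.24, adjusted p = 0.00903), and 3 of its 5 probe sets were called. Apoa2 fell by 1.49, and Alb was at 7.44 and 6.68 on the day 0 arrays, 5.502 on day 4 and 5.24 on day 7 without a call (adjusted p = 0.0666). In the list of fetal hepatocyte and yolk sac genes, 2 of 16 were lower and 1 higher, against 0.912% and 3.17% of all genes. The higher gene was Rbp4, at 1.36, and Apoc2 and Apoa1 differed by 1.09 and 0.30 without a call. Both graft arrays lay below both day 0 arrays for 11 of the 16, against 39.3% of all genes. Among muscle genes, Myl7, an atrial myosin light chain, was at 9.56 and 8.57 on the day 0 arrays, 5.57 on day 4 and 5.04 on day 7 (log2 difference -3.76, standard error 0.34, adjusted p = 0.00904), and Myh8, a perinatal myosin heavy chain, at 7.62 and 8.63 on the day 0 arrays, 5.25 on day 4 and 4.41 on day 7 (log2 difference -3.29, standard error 0.34, adjusted p = 0.012). These 2 of 17 muscle genes were called, against 0.912% of all genes called lower, and the list median was -1.37. Actc1, Myh3, Acta1 and Ttn were higher in day 0 replicate 1 than in replicate 2 by more than 2 units, and were not called. Without day 0 replicate 1, 2 muscle genes were called, and without replicate 2, 4. Dct, a melanin enzyme of pigment cells, was at 8.45 and 9.12 on the day 0 arrays, 5.42 on day 4 and 5.43 on day 7 (log2 difference -3.36, standard error 0.26, adjusted p = 0.0064). Cpa1, a pancreatic carboxypeptidase that is also found in the embryo, fell by 3.52, and G6pc2, a glucose-6-phosphatase of islets, by 3.20. On the later arrays Cpa1 stood at 8.27 on day 15 and at 8.80 and 9.30 on day 20. Myh8 was not called without a day 10 array, Cpa1 without a day 0 or a day 20 array, and Apoa2 without a day 0 or a day 10 array.

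Among the 15 largest falls were also Dusp9, Sox2, Hmga2, Phlda2, Igfbp2 and Igdcc3, which do not share a list. Dusp9, a phosphatase that inactivates MAP kinases, was at 8.81 and 9.45 on the day 0 arrays, 4.76 on day 4 and 4.56 on day 7 (log2 difference -4.47, standard error 0.25, adjusted p = 0.0039). Sox2, a transcription factor of pluripotent and neural cells that fetal germ cells also express, was at 6.79 and 8.501 on the day 0 arrays, 3.31 on day 4 and 3.20 on day 7 (log2 difference -4.39, standard error 0.53, adjusted p = 0.0175). Sox2 was under the 25th percentile in both grafts. Hmga2, a chromatin protein of growing embryonic tissue, was at 12.69 and 12.05 on the day 0 arrays, 9.01 on day 4 and 8.25 on day 7 (log2 difference -3.74, standard error 0.34, adjusted p = 0.00877). The imprinted genes Cdkn1c and Mest fell by 1.65 and 1.34, and Phlda2, which restrains placental growth, fell by 3.54. Igf2, the main fetal growth factor gene, was at 14.06 and 13.99 on the day 0 arrays, 13.37 on day 4 and 13 on day 7 and was not called (adjusted p = 0.0829), while Igfbp2, which encodes a binding protein for it, fell by 3.11. In the list of fetal growth and imprinted genes, 3 of 18 were lower, against 0.912% of all genes, and 15 were not called. The list median was -0.40, and 0 were lower without a day 0 array. Igdcc3, an immunoglobulin-domain gene of the early embryo, fell by 3.05. Of its 3 probe sets 1 was called, and the smallest difference among them was -0.42. Dusp9, Dct, G6pc2, Igdcc3, Afp and Myl7 were called in every omission of a single array of days 0, 10 or 20. Hmga2 was not called without a day 0 array, Sox2 without a day 10 array, and Phlda2 and Igfbp2 without either kind.

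Among 12 genes of the gonadal somatic lineage, 3 were lower, against 0.912% of all genes, and none higher, with a median of -0.72. Lhx9, a LIM homeobox gene needed for the gonad to form, was at 12.69 and 12.62 on the day 0 arrays, 9.74 on day 4 and 9.52 on day 7 (log2 difference -3.03, standard error 0.48, adjusted p = 0.0389). Its relative Lhx2 was at 4.78 and 5.0 on the day 0 arrays, 3.44 on day 4 and 3.31 on day 7 (log2 difference -1.52, standard error 0.20, adjusted p = 0.0221), and Podxl, a sialomucin of coelomic epithelium and podocytes, at 12.46 and 12.86 on the day 0 arrays, 11.05 on day 4 and 10.35 on day 7 (log2 difference -1.96, standard error 0.20, adjusted p = 0.012). Lhx2 lay at the limit of background on day 0 and below it in the grafts, and with low values raised to the 25th percentile its difference was -0.09. Nr5a1, which activates steroidogenic genes, Emx2, Wt1 and Gata4 were not called and differed by -0.73, -0.72, -0.49 and -0.03. No gonadal call held in the fits without a day 0 or a day 10 array.

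**Figure D3:**
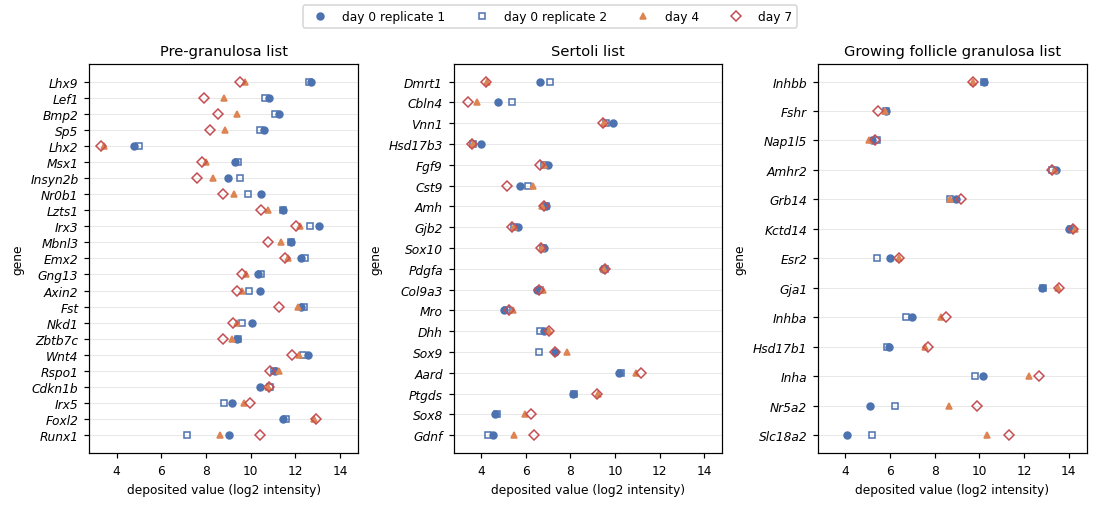
Deposited log2 intensities of the genes of the pre-granulosa list (left), the Sertoli list (middle) and the list for granulosa cells of growing follicles (right), ordered by the difference between early grafts and day 0. Each point is 1 array, with filled circles and open squares for day 0, triangles for day 4 and open diamonds for day 7. Most pre-granulosa genes have graft values at or below day 0, whereas most Sertoli genes lie close together on all 4 arrays.

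Pre-granulosa genes had 5 of 23 lower, against 0.912% of all genes, and none higher, with a median of -0.72. Both graft arrays lay below both day 0 arrays for 18 of the 23, against 39.3% of all genes. The genes called were Lhx9, Lef1, Bmp2, Sp5 and Lhx2, which lay near background as given above. Lef1, a transcription factor through which WNT signals act, was at 10.84 and 10.65 on the day 0 arrays, 8.80 on day 4 and 7.93 on day 7 (log2 difference -2.38, standard error 0.21, adjusted p = 0.00826). Sp5, a direct WNT target, was at 10.61 and 10.42 on the day 0 arrays, 8.83 on day 4 and 8.19 on day 7 (log2 difference -2.01, standard error 0.16, adjusted p = 0.00666). Bmp2, a growth factor of the fetal ovary, was at 11.26 and 11.09 on the day 0 arrays, 9.38 on day 4 and 8.53 on day 7 (log2 difference -2.22, standard error 0.31, adjusted p = 0.0253). In these 3 genes day 7 was the lowest array. Other genes of the same pathway were not called, with differences of -0.69 for Axin2, -0.45 for Wnt4, 0.01 for Rspo1 and -0.64 for the follistatin gene Fst. Irx3, Nr0b1, Lzts1 and Zbtb7c, which the study names among candidates lowered by day 10, were not called either. They differed by -0.74, -1.15, -0.84 and -0.46. Foxl2 was at 11.44 and 11.58 on the day 0 arrays, 12.84 on day 4 and 12.93 on day 7, and although both grafts lay more than 1 unit above day 0, its adjusted p was 0.188. Runx1, another transcription factor of pre-granulosa cells, was at 9.01 and 7.15 on the day 0 arrays, 8.61 on day 4 and 10.42 on day 7, where the duplicates differed by more than 1 unit. None of the 5 calls was made without a day 0 array, and 2 were made without either day 10 array.

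Sertoli genes had a median of -0.04 and were called in both directions. Of 18 genes, 1 was higher and 2 were lower, against 3.17% and 0.912% of all genes. Dmrt1, a transcription factor of Sertoli and germ cells, was lower, at 6.62 and 7.10 on the day 0 arrays, 4.25 on day 4 and 4.24 on day 7 (log2 difference -2.62, standard error 0.24, adjusted p = 0.00885). Cbln4 was also lower, by 1.46 (adjusted p = 0.0409), but its graft values lay below the 25th percentile of all values, and with low values raised the difference was -0.29. Sox8, a relative of Sox9 that acts beside it in the testis, was higher, at 4.63 and 4.69 on the day 0 arrays, 5.95 on day 4 and 6.24 on day 7 (log2 difference 1.44, standard error 0.18, adjusted p = 0.0181). Sox9 itself was at 7.30 and 6.59 on the day 0 arrays, 7.84 on day 4 and 7.33 on day 7 with an adjusted p of 0.377, and its day 7 value lay close to day 0 replicate 1. Amh, the anti-Mullerian hormone, was at 6.92 and 6.92 on the day 0 arrays, 6.73 on day 4 and 6.81 on day 7, with less than 0.3 between its highest and lowest array. Dhh and Ptgds, further Sertoli genes, differed by 0.30 and 1.07. Without a day 0 array no Sertoli gene was called (0), and without either day 10 array 1 was lower.

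Germ cell and meiosis genes had a median of -1.06, and Rec8, a cohesin subunit of meiosis, was the only 1 of 22 called, at 9.09 and 9.63 on the day 0 arrays, 8.04 on day 4 and 7.28 on day 7 (log2 difference -1.70, standard error 0.23, adjusted p = 0.0242). Of all genes, 0.912% were called lower. Dazl, an RNA-binding protein of germ cells, was at 9.15 and 11.12 on the day 0 arrays, 6.22 on day 4 and 7.48 on day 7, and Dppa5a at 9.36 and 11.09 on the day 0 arrays, 6.48 on day 4 and 7.66 on day 7. For these 2 genes and Ddx4 all graft values lay below all day 0 values, and adjusted p was 0.134, 0.141 and 0.171. The meiotic inducer Stra8 was at 6.58 and 9.63 on the day 0 arrays, 5.60 on day 4 and 5.51 on day 7. Rec8 was not called without a day 0 or a day 10 array. Day 0 replicate 2 was higher than replicate 1 by more than 1.5 units for Dazl, Ddx4, Dppa5a and Stra8.

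Proliferation genes were lower by about 1 unit in both lists, with few calls. Of 23 DNA replication genes, 3 were called lower, against 0.912% of all genes. All 23 mitosis genes and 22 of 23 DNA replication genes had both graft arrays below both day 0 arrays, against 7142 of all 18194 genes (39.3%). The medians were -1.01 and -1.01. Cdt1, which loads the replicative helicase, was at 11.39 and 11.32 on the day 0 arrays, 9.96 on day 4 and 9.96 on day 7 (log2 difference -1.40, standard error 0.19, adjusted p = 0.0236), and Rrm2, which makes deoxynucleotides, at 11.33 and 11.53 on the day 0 arrays, 10.02 on day 4 and 10.07 on day 7 (log2 difference -1.39, standard error 0.18, adjusted p = 0.0221). Mcm3, a subunit of that helicase, fell by 1.32. For Cdt1 2 of 3 and for Mcm3 2 of 5 probe sets were called, with the smallest differences at -0.06 and -0.19. No mitosis gene was called, and Bub1, a spindle checkpoint kinase, had the largest difference of the list, at 10.23 and 10.88 on the day 0 arrays, 9.03 on day 4 and 9.06 on day 7 (adjusted p = 0.0831). The marker of cycling cells Mki67 was at 11.08 and 11.44 on the day 0 arrays, 10.74 on day 4 and 10.82 on day 7. The cell cycle inhibitor Cdkn1a, which p53 induces, was at 11.27 and 10.57 on the day 0 arrays, 9.88 on day 4 and 9.26 on day 7 and was not called, and Cdkn2b rose by 1.21. Neither Cdkn2b nor any replication gene was called without a day 0 or a day 10 array, whereas 7 replication and 5 mitosis genes were lower without the day 20 arrays.

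The promoters of mitosis genes are known for the cell cycle homology region and the CCAAT box. The letters TTTGAA were present in 15 of 19 list members with an entry (78.9%), against 17.9% of all promoters and 20.2% of all genes, and CCAAT in 17 of 19 (89.5%), against 37.4% and 41.1%. Of 18 replication genes with an entry, 5 held TTTGGCGC, a form of the E2F site that 0.514% of all promoters hold, and 4 held the form TTTCGCGC, which 0.323% hold. Of the 3 called ones, Mcm3 and Cdt1 held the former and none the latter.

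Smaller numbers were called elsewhere, where 3.17% of all genes were higher and 0.912% lower. The retinoic acid list had 2 of 14 genes higher and 2 lower, and the epithelial list 3 of 18 higher and 3 lower. Immediate early genes had 4 of 22 higher and none lower, and clock genes 2 of 16 higher and 1 lower. Retinoic acid genes had Crabp1 and Crabp2, which encode binding proteins for retinoic acid, lower by 2.59 and 2.16, and Rbp4 and Dhrs3 higher by 1.36 and 1.22. In the ovarian surface and epithelium list, Msln (mesothelin) and Cldn4 were higher by 2.68 and 2.05, and Lrrn4 and Krt7 lower by 3.01 and 1.56. Among immediate early genes, which respond within minutes to stimulation and handling, Egr2, Klf6, Atf3 and Junb were higher, by 3.18, 1.72, 1.56 and 1.15, and Fos was at 6.61 and 6.86 on the day 0 arrays, 9.497 on day 4 and 8.75 on day 7 without a call (adjusted p = 0.177). Clock genes had Nr1d2 and Bhlhe40 higher and Cry1 lower, at 1.83, 1.504 and -1.57. For Nr1d2, 1 of 2 probe sets was called, and the other differed by 0.09. No gene of these 4 lists was called without a day 0 array, and the fits without a day 10 array gave 1 lower retinoic acid gene, 1 higher and 1 lower epithelial gene and no others.

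In the hypoxia list 1 of 15 genes was called, and it was lower, as were 0.912% of all genes. Adm, which encodes the vessel-dilating peptide adrenomedullin, was at 10.06 and 9.73 on the day 0 arrays, 7.89 on day 4 and 7.37 on day 7 (log2 difference -2.26, standard error 0.23, adjusted p = 0.012). It was not called without a day 0 or a day 10 array. The hypoxia targets Vegfa, Slc2a1 and Car9 differed by -0.08, -0.30 and 0.89. None of 22 endothelial genes was called, with Pecam1 and Cdh5 at -0.22 and 0.30, and Plvap, which forms the diaphragms of fenestrated vessels, at 8.57 and 9.04 on the day 0 arrays, 6.68 on day 4 and 6.91 on day 7 (adjusted p = 0.145). Glycolysis, cholesterol synthesis and heat shock lists had no call in 13, 15 and 16 genes, and their medians were -0.17, -0.21 and 0.01. In the fit without the day 20 arrays, 1 endothelial gene was higher and 1 lower, and 1 glycolysis gene was lower.

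No probe set was called between days 7 and 4 by limma (lowest adjusted p = 1), and 654, or 1.45%, had an unadjusted p under 0.05. The genes with the largest differences are therefore given as values. Cxcl10, a chemokine induced by interferon gamma, was at 5.19 and 5.17 on the day 0 arrays, 6.78 on day 4 and 11.17 on day 7, and Cxcl9, which binds the same receptor, at 4.18 and 4.23 on the day 0 arrays, 8.34 on day 4 and 11.58 on day 7. Cxcl11, the other ligand of that receptor, was at 5.91 and 6.03 on the day 0 arrays, 6.62 on day 4 and 10.92 on day 7, and Gbp8 at 5.01 and 5.005 on the day 0 arrays, 7.11 on day 4 and 11.08 on day 7. In all 4 genes the day 7 array was more than 3 units above day 4. The 23 genes of the interferon list were all higher on day 7, by a median of 1.56, as were 7002 of the 18194 genes overall. Macrophage genes went the other way, with 3 of 24 higher on day 7. Leaving out the day 4 array gave 16 called interferon genes, and leaving out day 7 gave 5.

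Several oocyte genes were among those with the largest differences toward day 7, by which they were chosen. Zp3, a protein of the zona pellucida that surrounds the oocyte, was at 4.66 and 4.96 on the day 0 arrays, 5.03 on day 4 and 8.49 on day 7, Nlrp14 at 3.78 and 4.78 on the day 0 arrays, 3.78 on day 4 and 7.79 on day 7, and Padi6, a protein of the oocyte cytoplasmic lattices, at 6.08 and 6.13 on the day 0 arrays, 5.69 on day 4 and 9.33 on day 7. Each lay within 0.5 of a day 0 value on day 4 and at least 2 units above day 0 on day 7. Dppa3, which is expressed in fetal germ cells and again in oocytes, was at 7.90 and 10.08 on the day 0 arrays, 5.14 on day 4 and 9.70 on day 7, and so was below day 0 on day 4. Of 22 germ cell genes, 18 had a higher value on day 7 than on day 4, but the oocyte growth factor genes of that list did not share the size of these differences, with day 7 against day 4 at 0.71 for Gdf9 and, in the other direction, -0.62 for Bmp15. Plet1, a surface protein of epithelial and placental progenitors, was at 4.95 and 4.55 on the day 0 arrays, 4.98 on day 4 and 9.11 on day 7.

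Higher on day 4 were mast cell genes and several genes of other kinds. Mcpt2, a mast cell protease, was at 4.75 and 4.58 on the day 0 arrays, 7.42 on day 4 and 5.23 on day 7, and Fcer1a, given above, was 2.35 units lower on day 7. Tac2, which encodes neurokinin B, was at 7.11 and 6.39 on the day 0 arrays, 7.91 on day 4 and 5.14 on day 7, and Nts, which encodes the peptide neurotensin, at 4.07 and 4.14 on the day 0 arrays, 7.52 on day 4 and 4.97 on day 7. Nts was also called between early grafts and day 0 (adjusted p = 0.0111), although only its day 4 value was more than 1 unit above day 0. The remaining genes of this kind were Cyp4f15, at 8.26 and 8.45 on the day 0 arrays, 8.60 on day 4 and 6.44 on day 7, Serpina6, which encodes the carrier of corticosteroids in blood, at 6.17 and 5.86 on the day 0 arrays, 6.31 on day 4 and 4.26 on day 7, and Apoc2, at 5.70 and 6.09 on the day 0 arrays, 8.04 on day 4 and 5.93 on day 7.

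**Figure D4:**
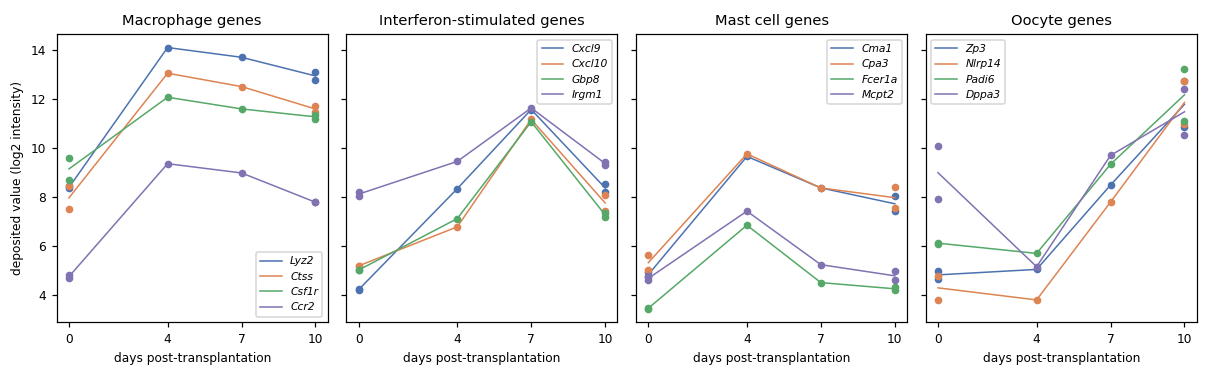
Deposited log2 intensities of 4 macrophage, 4 interferon-stimulated, 4 mast cell and 4 oocyte genes by day post-transplantation, on days 0, 4, 7 and 10. Points are arrays, with 2 on days 0 and 10 and 1 on days 4 and 7, and lines join the daily means. The macrophage and mast cell genes have their highest values on day 4, the interferon-stimulated genes on day 7 and the oocyte genes on day 10.

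The early levels were also set against the 2 arrays of day 10. No probe set was called there by limma (lowest adjusted p = 0.2365), and 3027, or 6.71%, had an unadjusted p under 0.05. Both day 10 arrays lay below both early arrays for 22 of 24 macrophage genes, 20 of 23 interferon genes and all 3 Y-linked genes, against 5441 of 18194 genes. Lyz2 was at 12.80 and 13.11 on day 10, Ccl8 at 9.23 and 9.80, and Cxcl10 at 7.43 and 8.08. The matrix genes Dpt and Aspn were at 11.62 and 11.93 and at 11.06 and 10.72, within 0.7 of their early values. The oocyte gene Zp3 was at 10.84 and 12.74, and Padi6 at 11.12 and 13.24, in both cases above the day 7 array. Among the genes that had fallen, Lhx9 was at 8.96 and 9.59, Dusp9 at 4.76 and 4.59, and Hba-x at 5.99 and 5.97.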

How the data were processed

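RNA of pooled ovaries and grafts was measured on 9 arrays, with 2 arrays each for days 0, 10 and 20 post-transplantation and 1 each for days 4, 7 and 15. The authors deposited RMA values (robust multiarray averaging, version not given in the sources used here), on the log2 scale, after background correction, quantile normalization and summary of the probes in each of 45101 sets. No detection call comes with them, so that precision depends on how many arrays there are. All fits used lmFit and eBayes of limma (version 3.58.1, R 4.3.3), which had 3 residual and 2.69 prior degrees of freedom. Further steps ran in Python 3.11.15 with numpy 2.4.6, pandas 2.3.3 and, for plots, matplotlib 3.10.9. On simulated data the fit recovered 62 of 100 changes of 2 log2 units and 86 of 100 changes of 3 units, with 14 false calls. A gene that was not called may therefore still have changed.

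The platform annotation gave 1 gene symbol to 34958 probe sets, several to 932 and no entry to 9211, and 64 sets are controls. Genes were named at the probe set with the highest mean. Other probe sets of a gene did not always show the same change, and this is not stated for every gene. Of 712 entries in 41 lists, 656 were measured, and the other entries were not analysed here. Members and lists were chosen with earlier results of these data known. The genes named were the 15 largest rises and falls, 8 each way for day 7 against day 4, up to 5 called members of a list with its defining genes, and some of the genes that the study names. Promoters came from RefSeq (GRCm38.p6), 1 to several per gene.

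Alternatives covered a trended eBayes prior, other normalizations and sets of arrays, other filters on low values, fold thresholds and probe sets, and single arrays left out.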

Additional observations from a re-analysis of the deposited data

How the results depend on the processing

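The 964 higher and 295 lower probe sets kept within 1.5 times their counts with an intensity trend, centred or quantile-normalized arrays, other fold thresholds, only probe sets above the median, genes in place of probe sets and only the 4 arrays of days 0, 4 and 7. The settings with genes and with probe sets above the median test fewer features, so that their shares differ more than their counts. With genes, 697 were higher and 241 lower, against 577 and 166 genes in the main fit. The counts of higher or lower probe sets left this range in other settings. Without the day 4 array 579 were higher and 174 lower, and without the day 7 array 349 and 70. With values raised to the 25th percentile (4.82) the counts were 253 and 82, where many low differences shrink by construction. Without both day 20 arrays 510 were lower. Leaving out 1 array of days 0, 10 or 20 gave 105 to 1384 higher and 37 to 510 lower, and the lowest counts came without a day 0 array. Omissions of day 10 or day 20 arrays act on these counts only through the residual spread, since the differences stay the same. The cause of the other shifts was not tested.

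Between days 7 and 4, and between day 10 and the early grafts, no probe set was called (0) in any setting but that with raised values, which gave 3 higher and 6 lower on day 7 and 1 higher and 12 lower on day 10. Centring gave 944 higher and 356 lower, so that the excess of higher calls stayed. Over the genes with the largest changes and the called list genes, 1852 values kept their direction and side of the threshold across the alternatives. A further 854 lost the call and none changed sign. All of these genes were called in the main fit, so that a change of sign was unlikely from the start. Named genes without a call were not counted. Of the counts per list, 1040 stayed within 1.5 times and 354 did not. Many of the 1040 were counts of 0 that stayed 0, so that this tally overstates how stable the lists were. No paired analysis was possible because the day 4 and day 7 arrays are single and carry no replicate number.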
